A study of Mus musculus with 12 samples.

Results

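The expression of 8 epithelial tight junction genes was examined in the lungs of neonatal mice exposed to lipopolysaccharide (LPS). The genes are Cldn1, Cldn3, Cldn4, Cldn7 and Cldn10, which encode claudins, Ocln, which encodes occludin, and Tjp1 and Tjp3, which encode the scaffold proteins ZO-1 and ZO-3. They were taken by gene symbol from the count table, where all 8 were found among 52550 genes, and all 8 passed the filter on low counts. Bulk RNA sequencing had been run on whole lungs of 12 C57Bl/6J mice on postnatal day 5, with 3 mice in each of 4 groups. WT mice carried both copies of the adrenomedullin gene (Adm+/+), and Adm+/- mice carried a single functional copy in every cell, since mice without any copy die as embryos. Treated pups of both genotypes were injected into the peritoneum with LPS from Escherichia coli O55:B5 (6 mg/kg) and control pups with phosphate-buffered saline (PBS), 1 injection a day from postnatal day 3 to day 5, or 3 doses in all. Tissue was collected 6 h after dose 3. The Adm+/- allele came from a 129/SvEv background and had been backcrossed to C57BL/6J. Libraries are named by the number in their labels, so that WT PBS held libraries 3, 4 and 5, WT LPS held 9, 10 and 11, Adm+/- PBS held 6, 7 and 8, and Adm+/- LPS held 1, 2 and 12.

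Tight junctions are belts of strand proteins near the apex of epithelial cells that limit what passes between neighbouring cells. Claudins form the strands, some of them sealing the space between cells and others opening ion-selective pores, while occludin is a second membrane protein of the strands and the ZO proteins tie both to the actin cytoskeleton. In the lung, the alveolar and airway epithelia use different mixtures of claudins, and these junctions keep fluid out of the air spaces.

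Total counts ranged from 22382535 to 38062873 per library, and the lowest count of any of the 8 genes in any library was 77. Values are CPM, counts divided by library size after TMM, a normalization that sets the libraries on a common scale. Adm itself was lower in Adm+/- mice in PBS (3.69 ± 0.85 against 5.21 ± 1.66 CPM, SD, n = 3) and in LPS (4.65 ± 1.42 against 6.79 ± 2.03 CPM), but the groups overlapped and neither difference passed the test. WT PBS library 5 and Adm+/- PBS library 6 stood apart, with protein-coding genes taking 77.8% and 80.1% of their counts, while the range over the remaining 10 libraries was 84.3% to 87.6%. A single gene, Gm26917, took 16.6% and 13.3% of the counts in libraries 5 and 6, and 5.42% to 7.40% in the remaining 10. WT LPS libraries 9 and 11 held markers of squamous epithelium, a stratified lining that lung alveoli lack, at summed levels of 3476 and 1779 CPM, against 34.6 CPM in WT LPS library 10 and 5.05 to 49.9 CPM in the other 9 libraries. The keratin genes Krt4 (1382 and 755 CPM in libraries 9 and 11), Krt13 (1027 and 542 CPM) and Krt15 (450 and 230 CPM) made up most of these sums. The skeletal muscle marker sum was also higher in all 3 WT LPS libraries, at 876 to 2111 CPM, than in the other 9, at 18.9 to 55.7 CPM. Sftpc, the surfactant protein C gene of type II pneumocytes, was between 7628 and 11605 CPM in every library, and the pan-endothelial gene Cdh5 between 558 and 768 CPM. Neither gene stands for its list. Among 10 type II pneumocyte markers, 1 rose with LPS in WT mice, and 3 rose and 2 fell in Adm+/- mice (rule given below). Among 10 endothelial markers, 3 fell in WT and 4 in Adm+/- mice, and 0 rose. The shares of all tested genes were 10.5% higher and 7.09% lower in WT and 12.8% and 12.2% in Adm+/- mice.

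The genes lie on 7 chromosomes of the mm10 build, and Cldn3 and Cldn4 are neighbours on chromosome 5. Cldn4 (minus strand, chr5:134945119-134946934) and Cldn3 (plus strand, chr5:134986214-134987472) each consist of a single exon, point away from each other, and are separated by 39279 bases that hold 0 other protein-coding genes. The other members are Cldn7 on chromosome 11, Cldn10 on 14, Cldn1 on 16, Ocln on 13, Tjp1 on 7 and Tjp3 on 10. Exons of Cldn3 share 40 bases with Wbscr25 and exons of Tjp3 share 40 bases with Apba3, both on the opposite strand. The 250 bases before the RefSeq start of each gene (build GRCm38.p6, 12 windows for the 8 members) were searched on both strands for 7 motifs. The windows of the neighbours Cldn4 and Cldn3 are printed because Cldn4 had the largest WT response among the 8 genes and shares its locus with Cldn3. Each reads 5′ to 3′ toward the start, and capitals mark matches to TGANTCA, the AP-1 motif.
Cldn4 (minus strand, chr5:134946935-134947184): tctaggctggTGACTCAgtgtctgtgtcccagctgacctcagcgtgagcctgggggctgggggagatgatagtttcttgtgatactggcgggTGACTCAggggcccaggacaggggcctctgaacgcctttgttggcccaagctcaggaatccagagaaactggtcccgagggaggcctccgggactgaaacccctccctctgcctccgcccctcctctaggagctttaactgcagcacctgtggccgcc
Cldn3 (plus strand, chr5:134985964-134986213): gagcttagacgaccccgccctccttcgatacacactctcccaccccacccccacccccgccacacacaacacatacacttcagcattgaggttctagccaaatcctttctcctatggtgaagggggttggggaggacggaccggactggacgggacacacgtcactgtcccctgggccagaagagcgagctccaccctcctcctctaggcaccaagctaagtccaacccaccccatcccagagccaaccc

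The Cldn4 window held 2 matches to TGANTCA, at 240 to 234 and 158 to 152 bases before the start, and neither overlapped another motif. No other window of the 8 genes held one. Of 32851 windows of this length in the mouse table, 6.75% held at least 1 match and 0.338% held 2 or more. GGGCGG, a motif of SP and KLF factors, was found in 8 of the 12 windows (32.7% of all windows), and CAAGTG, a motif of the lung factor Nkx2-1, in 4 of 12 (11.6% of all windows). AGGAAGT, an ETS motif, was found in 1 window, that of Cldn7 (7.69% of all windows). Matches to the grainyhead motif AACCNGTT, the NF-kappa B motif and the STAT motif TTCCNGGAA were found in 0 of 12 windows, against 1.79%, 1.41% and 0.913% of all windows.

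To compare the genes with each other, CPM was divided by the length of merged exons. In WT PBS lungs the order was Tjp1 (71.5 ± 11.1 CPM per kb, SD, n = 3), Cldn3 (63.4 ± 10.9), Cldn7 (14.0 ± 0.90), Ocln (13.0 ± 3.65), Cldn4 (7.85 ± 2.41), Tjp3 (6.63 ± 1.27), Cldn10 (2.39 ± 0.51) and Cldn1 (1.80 ± 0.67 CPM per kb). The libraries of Tjp1 and Cldn3 overlapped on this scale, as did those of Cldn7 and Ocln, of Cldn4 and Tjp3, and of Cldn10 and Cldn1. The steps from Cldn3 to Cldn7 and from Tjp3 to Cldn10 had no overlap, and Ocln and Cldn4 overlapped only through WT PBS library 5, where Ocln was lowest and Cldn4 highest. Adm+/- PBS lungs had the same order. After LPS, Cldn3 stood first by mean and Tjp1 next in both genotypes (77.8 ± 4.33 and 75.8 ± 4.63 CPM per kb in WT, 84.6 ± 3.75 and 83.1 ± 3.43 in Adm+/-), with overlapping libraries. Cldn18, the alveolar claudin, which is not among the 8 genes, was above all of them in WT PBS at 153 ± 4.05 CPM per kb.

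**Figure D1:**
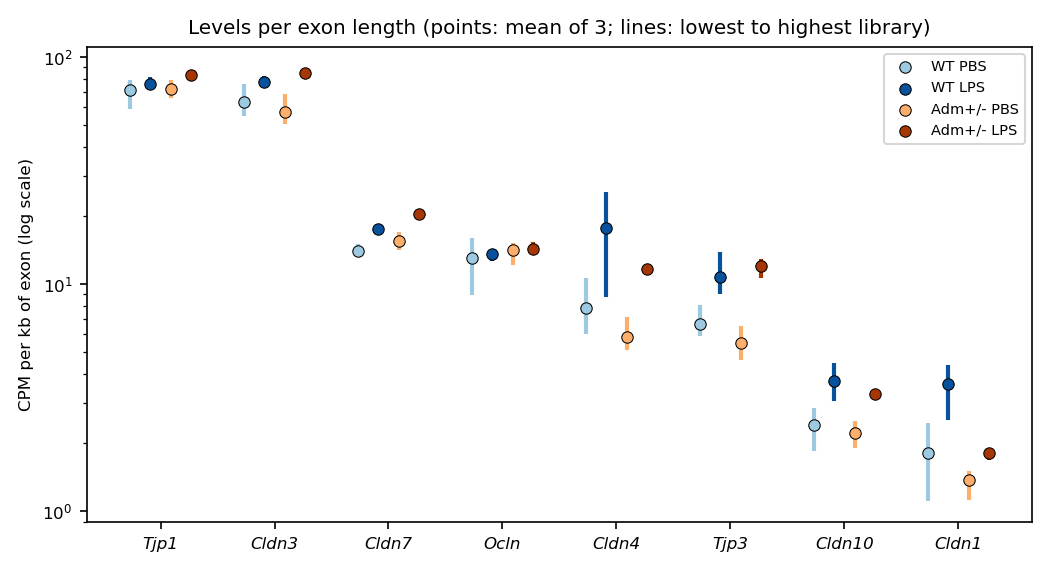
Level of each tight junction gene per kilobase of merged exon (log axis) in the 4 groups, ordered by the WT PBS mean, with points for the mean of 3 libraries and lines from the lowest to the highest library. Group means of Tjp1 and Cldn3 lie between 57.3 and 84.6 CPM per kb, and Cldn1 and Cldn10 lie lowest.

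The first comparison asked how the genes responded to LPS in WT mice. Cldn1, Cldn4, Cldn10 and Tjp3 rose, by 1.56-fold (Cldn10) to 2.26-fold (Cldn4). A gene was counted as risen or fallen at a Benjamini-Hochberg adjusted p below 0.05 over 15885 tested genes by edgeR's quasi-likelihood test and an absolute log2 fold change above 0.5. By this rule 4 of 8 rose, against 10.5% of all tested genes, and 0 of 8 fell, against 7.09%. All 8 fold changes were above 0, with a median log2 fold change of 0.48 against 0.01 over all tested genes. For 4 of 8 every LPS library lay above every PBS library, as it did for 18.3% of all tested genes. A fit of only the 6 WT libraries called 0 of 8, and so did a test of whether the log2 change itself exceeds 0.5 (glmTreat). These called 7.19% and 6.3% of all tested genes in either direction, against 17.6% in the fit of all 12 libraries. Leaving out WT LPS library 9 alone, which had the highest squamous marker sum (3476 CPM), also called 0 of 8, and 9.03% of all tested genes. Leaving out WT LPS library 11 (1779 CPM) called 1 of 8, and 16.6% of all tested genes. The skeletal muscle sum of 876 CPM or more in each WT LPS library went with the same comparison, and the part of neither marker list in these counts was tested.

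The second comparison asked the same of Adm+/- mice. Cldn3, Cldn4, Cldn10 and Tjp3 rose, by 1.48-fold (Cldn3 and Cldn10) to 2.18-fold (Tjp3), and 0 of the 8 fell. This was 4 of 8 against 12.8% of all tested genes, while 12.2% of all tested genes fell, and all 8 fold changes were again above 0, with a median of 0.48 against -0.01 over all genes. For 7 of 8 every LPS library lay above every PBS library, against 26.6% of all tested genes. Cldn4, Cldn10 and Tjp3 rose in both genotypes, as did 7.23% of all tested genes. The fit of only the 6 Adm+/- libraries called the same 4 genes and 28.8% of all tested genes, while glmTreat called Tjp3 alone and 10.7% of all tested genes, against 25% without it. Neutrophil markers moved with both comparisons, from a summed level of 40.2 to 167 CPM in WT PBS to 1497 to 2511 CPM in WT LPS, and from 35.9 to 59.5 CPM to 1489 to 1766 CPM in Adm+/- mice. The endothelial marker sum was lower after LPS, at 2492 to 2593 against 3094 to 3613 CPM in WT and 2647 to 2953 against 3201 to 3483 CPM in Adm+/- mice, and the part of these cells in the 8 genes was not tested. Whole lungs were sequenced, so a change in the number of epithelial cells and a change in RNA per cell cannot be told apart.

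**Figure D2:**
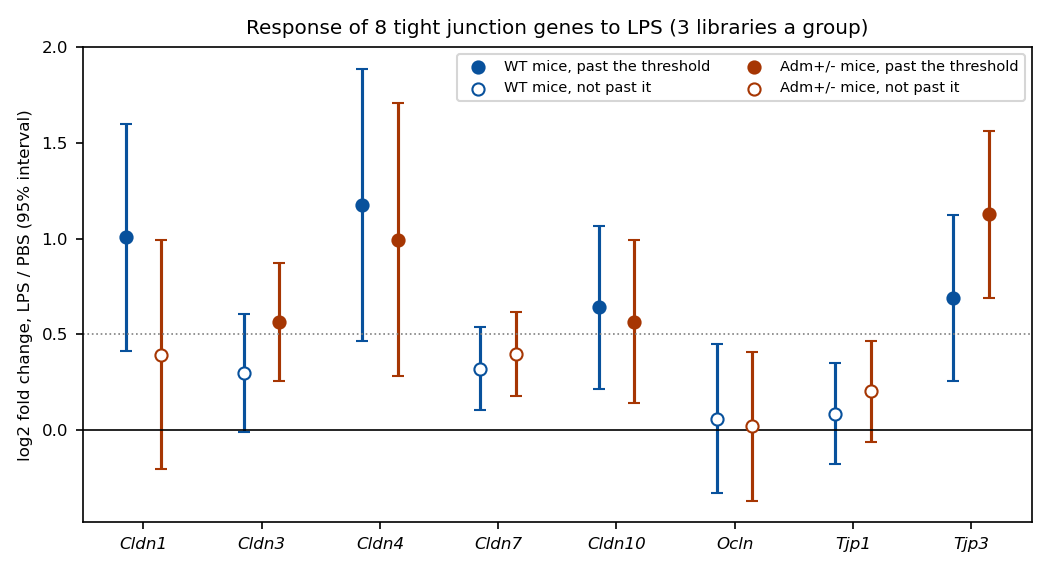
Fitted log2 fold change of LPS over PBS with its 95% interval for each gene in WT mice (blue) and Adm+/- mice (brown), filled where the gene passed the threshold and open where it did not, with a dotted line at 0.5. Cldn4, Cldn10 and Tjp3 are filled in both genotypes, and Ocln and Tjp1 lie close to 0.

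Cldn4, a sealing claudin of alveolar and airway epithelium, had the largest WT response. In WT PBS libraries 3, 4 and 5 it was measured at 12.6, 10.9 and 19.2 CPM, and in WT LPS libraries 9, 10 and 11 at 46.0, 16.0 and 34.2 CPM. Library 10 lay below the highest PBS library, so the WT groups overlapped. The log2 fold change was 1.18 ± 0.33 (SE; adjusted p = 0.0256, edgeR quasi-likelihood). In Adm+/- PBS libraries 6, 7 and 8 Cldn4 was at 12.9, 9.73 and 9.26 CPM, and in Adm+/- LPS libraries 1, 2 and 12 at 20.9, 20.6 and 21.9 CPM. These groups did not overlap, and the 3 LPS libraries lay close together. The log2 fold change was 0.99 ± 0.33 (adjusted p = 0.0380, edgeR). The WT call was lost without WT PBS library 3 or 4 or WT LPS library 9 or 11, and the Adm+/- call without Adm+/- PBS library 7 or 8, any Adm+/- LPS library or WT LPS library 11.

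The WT libraries with the highest Cldn4 were the libraries with the squamous markers. With libraries 9 and 11 both left out, an alternative chosen after the data had been seen, the WT log2 fold change of Cldn4 was 0.17 and none of the 8 genes passed the threshold. That fit rests on a single WT LPS library, whose spread is taken to equal that of the other groups. In Adm+/- LPS the squamous sum was 49.9, 14.2 and 8.27 CPM in libraries 1, 2 and 12, against 5.29 to 8.21 CPM in Adm+/- PBS, and Cldn4 was highest in library 12, where the sum was lowest. The part of the squamous material in the WT values was not tested.

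Cldn1, a sealing claudin abundant in stratified epithelia, was low in the lung. It was at 8.85, 11.8 and 5.37 CPM in WT PBS libraries 3, 4 and 5 and at 19.0, 12.1 and 21.4 CPM in WT LPS libraries 9, 10 and 11. The groups did not overlap, but library 10 was close to the highest PBS library while libraries 9 and 11 were well above it. The log2 fold change was 1.01 ± 0.27 (adjusted p = 0.0234, edgeR), was lost as a call without library 9 or library 11, and was 0.48 without both. Cldn1 in Adm+/- mice was at 5.42, 7.16 and 7.28 CPM in PBS libraries 6, 7 and 8 and at 9.01, 8.13 and 9.01 CPM in LPS libraries 1, 2 and 12. The groups did not overlap, and the log2 fold change of 0.39 ± 0.27 did not pass the test (adjusted p = 0.301, edgeR).

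**Figure D3:**
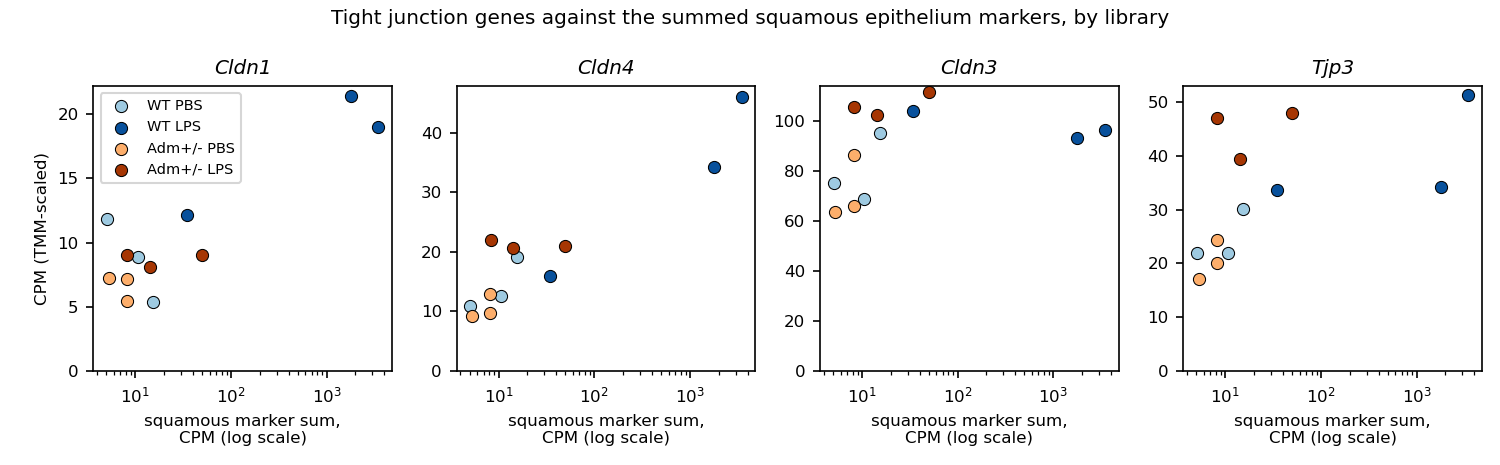
Level of Cldn1, Cldn4, Cldn3 and Tjp3 in each of the 12 libraries (vertical axis, CPM) against the summed level of 15 squamous epithelium markers in the same library (horizontal log axis, CPM), coloured by group. WT LPS libraries 9 and 11 stand alone at the right, with the highest Cldn1 and Cldn4, while Cldn3 in them is at 96.3 and 93.4 CPM, below WT LPS library 10.

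Cldn3, a sealing claudin of the alveolar and airway epithelium, was the most abundant of the 5 claudins per length. In WT PBS libraries 3, 4 and 5 it was at 68.8, 75.4 and 95.2 CPM, and in WT LPS libraries 9, 10 and 11 at 96.3, 104 and 93.4 CPM. The groups overlapped because WT PBS library 5 was as high as the LPS libraries, and the log2 fold change of 0.30 ± 0.14 did not pass (adjusted p = 0.150, edgeR). In Adm+/- mice it went from 86.4, 66.2 and 63.7 CPM in PBS libraries 6, 7 and 8 to 112, 102 and 105 CPM in LPS libraries 1, 2 and 12. The groups did not overlap, and Cldn3 rose by 0.56 ± 0.14 on the log2 scale (adjusted p = 0.0109, edgeR). This value was 0.48, under the fold limit, without Adm+/- PBS library 8. In both genotypes the highest PBS value was in the library that stood apart, WT PBS library 5 or Adm+/- PBS library 6. Without both of these the WT value of Cldn3 was still under the fold limit. Without WT PBS library 5 alone this value was 0.44. Over 12 fits that each left out 1 library, its adjusted p ran from 0.0329 to 0.327 (edgeR), with no value above the fold limit.

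Cldn7, a claudin found along the sides of epithelial cells as well as in the junction, had closely spaced replicates in every group. It was at 29.1, 27.3 and 25.6 CPM in WT PBS libraries 3, 4 and 5 and at 35.7, 33.8 and 32.9 CPM in WT LPS libraries 9, 10 and 11. Adm+/- mice had 32.9, 29.7 and 27.4 CPM in PBS libraries 6, 7 and 8 and at 40.2, 37.6 and 40.5 CPM in LPS libraries 1, 2 and 12. All LPS libraries lay above all PBS libraries of the same genotype. By edgeR, the WT log2 fold change was 0.32 ± 0.10 (adjusted p = 0.0417) and the Adm+/- one 0.40 ± 0.10 (adjusted p = 0.0114). Both stayed under the fold limit, so Cldn7 was not counted as risen.

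Cldn10, which forms ion-selective pores, was the least abundant of the 8 genes by CPM. It was at 7.34, 6.50 and 4.76 CPM in WT PBS libraries 3, 4 and 5 and at 11.7, 7.90 and 9.52 CPM in WT LPS libraries 9, 10 and 11. Adm+/- mice had 4.89, 6.49 and 5.77 CPM in PBS libraries 6, 7 and 8 and at 8.71, 8.59 and 8.16 CPM in LPS libraries 1, 2 and 12. Neither genotype had overlapping groups, with a WT log2 fold change of 0.64 ± 0.19 (adjusted p = 0.0374, edgeR) and an Adm+/- one of 0.57 ± 0.19 (adjusted p = 0.0453, edgeR). Both calls lie near the threshold, and without WT LPS libraries 9 and 11 the WT value was 0.34. Without WT PBS library 5 and Adm+/- PBS library 6 the WT call was lost. The lowest Adm+/- value over 21 alternative fits was 0.47, under the fold limit. Of 12 fits that each left out 1 library, 8 lost the WT call (those without WT PBS 4 or 5, WT LPS 9 or 11, Adm+/- PBS 8 or any Adm+/- LPS library) and 8 lost the Adm+/- call (those without WT PBS 4, WT LPS 11 or any Adm+/- library).

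Ocln, the gene of occludin, did not pass the test in either genotype. It was at 67.4, 59.9 and 37.7 CPM in WT PBS libraries 3, 4 and 5 and at 59.1, 53.0 and 60.0 CPM in WT LPS libraries 9, 10 and 11. Adm+/- mice had 51.3, 63.8 and 63.3 CPM in PBS libraries 6, 7 and 8 and at 64.6, 59.1 and 57.2 CPM in LPS libraries 1, 2 and 12. The groups overlapped in both genotypes, and the lowest PBS values came from libraries 5 and 6, which stood apart. The log2 fold change was 0.06 (95% interval -0.33 to 0.45) in WT and 0.02 (-0.37 to 0.41) in Adm+/- mice.

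Tjp1, the gene of the scaffold ZO-1, which is used by endothelium as well as epithelium, was the most abundant of the 8 genes by CPM. It was at 597, 619 and 459 CPM in WT PBS libraries 3, 4 and 5 and at 634, 569 and 575 CPM in WT LPS libraries 9, 10 and 11. Adm+/- mice had 517, 556 and 619 CPM in PBS libraries 6, 7 and 8 and at 680, 633 and 633 CPM in LPS libraries 1, 2 and 12. The WT groups overlapped and the Adm+/- groups did not. The log2 fold changes of 0.08 (95% interval -0.18 to 0.35) and 0.20 (-0.06 to 0.47) did not pass the test.

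Tjp3, the gene of ZO-3, a scaffold largely restricted to epithelia, was the only member whose Adm+/- call held in each of 21 alternative fits. It was at 21.9, 21.8 and 30.1 CPM in WT PBS libraries 3, 4 and 5 and at 51.2, 33.6 and 34.2 CPM in WT LPS libraries 9, 10 and 11. Adm+/- mice had 24.3, 20.1 and 17.2 CPM in PBS libraries 6, 7 and 8 and at 48.0, 39.3 and 46.9 CPM in LPS libraries 1, 2 and 12. All LPS libraries lay above all PBS libraries of their genotype. The log2 fold change was 1.13 ± 0.20 in Adm+/- mice (adjusted p = 0.00158, edgeR), between 1.02 and 1.27 in all the alternatives. In WT mice it was 0.69 ± 0.20 (adjusted p = 0.0297, edgeR), and this call was lost without WT PBS library 3 or 4 or WT LPS library 9. Without both WT LPS libraries 9 and 11 it was 0.45.

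**Figure D4:**
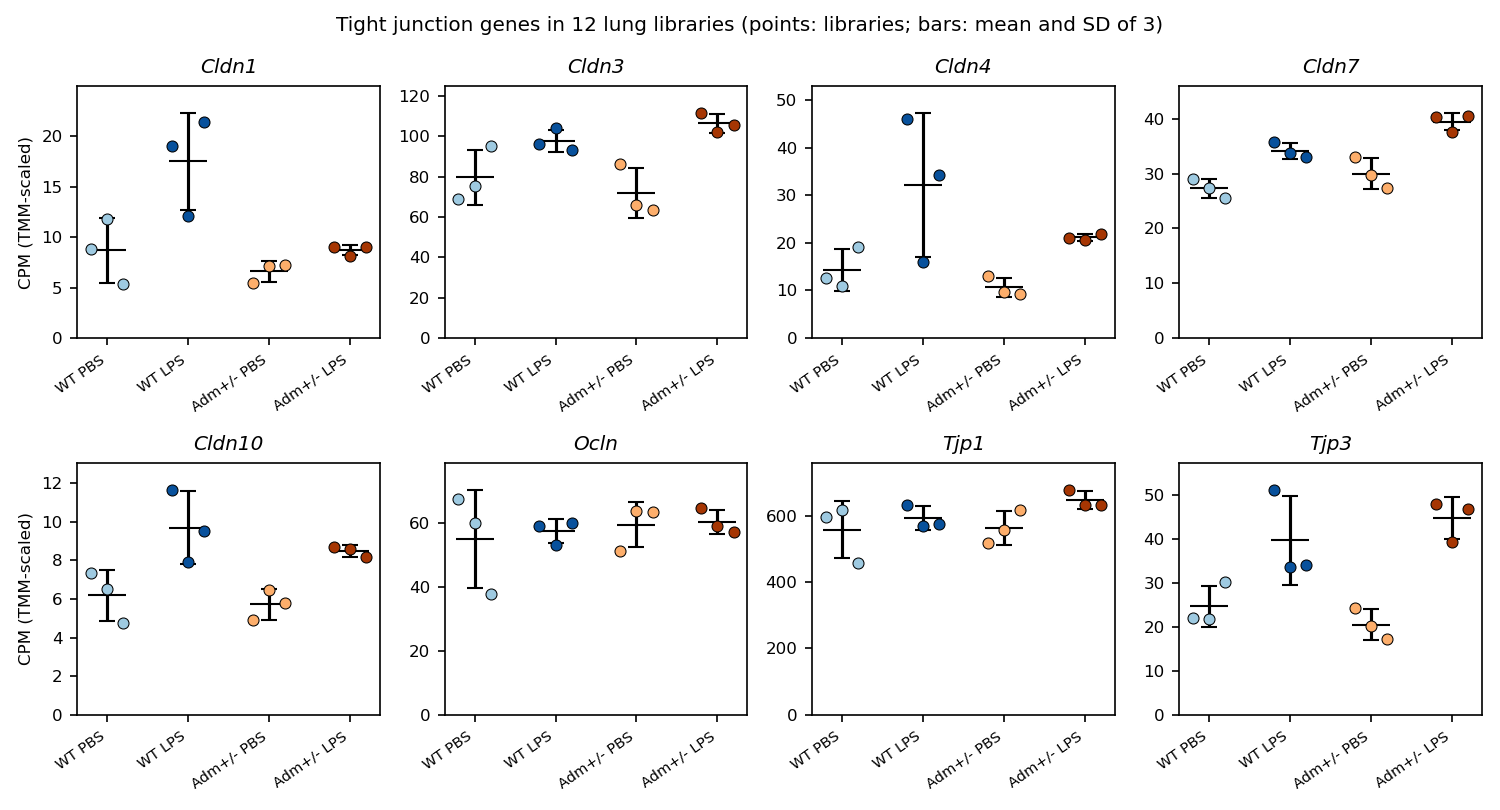
Level of each of the 8 genes (CPM, linear axis from 0) in every library of the 4 groups, with bars for the mean and SD of 3 libraries. Cldn1, Cldn7, Cldn10 and Tjp3 separate by treatment in both genotypes, while Ocln overlaps in both.

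Because the epithelial share of a whole lung can differ between libraries, each gene was also expressed relative to the mean log2 CPM of 10 general epithelial markers in the same library. None of these markers rose in Adm+/- mice and 1 of 10, the protease inhibitor gene Spint1, rose in WT mice, against 12.8% and 10.5% of all tested genes. Their mean log2 CPM was 5.67, 5.67 and 6.13 in WT PBS libraries 3, 4 and 5 and 6.15, 5.78 and 6.10 in WT LPS libraries 9, 10 and 11. In Adm+/- mice it was 5.93, 5.67 and 5.55 in PBS libraries 6, 7 and 8 and 5.81, 5.72 and 5.80 in LPS libraries 1, 2 and 12. Some of these markers were themselves higher in the squamous-marked WT LPS libraries 9 and 11 than in library 10, as for Krt19 (217 and 193 against 114 CPM), Rab25 (25.9 and 20.2 against 11.7 CPM) and Spint1 (70.2 and 57.6 against 40.8 CPM), and their part in the relative values was not tested. The most abundant of them, Krt7, was highest in WT PBS library 5 (371 CPM).

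On this relative scale Cldn4 and Tjp3 were the genes whose LPS and PBS libraries did not overlap in either genotype. They made 2 of 8 in WT mice, against 8.04% of all tested genes that were higher without overlap on this scale, while 5 of 8 were in Adm+/- mice, against 19.3%. The mean difference between LPS and PBS was 0.89 (WT) and 0.94 (Adm+/-) for Cldn4 and 0.48 and 1.07 for Tjp3, in log2 units. For Cldn4 squamous-marked WT LPS library 9 lay at -0.63, with library 11 next, and library 10 at -1.77, close to the highest WT PBS library at -1.86. In WT PBS, the 3 libraries of Tjp3 lay at -1.21, -1.21 and -1.21 relative to the markers, although its CPM ranged from 21.8 to 30.1. Cldn3 (0.52), Cldn7 (0.34) and Cldn10 (0.51) were also separated in Adm+/- mice, but in WT mice their groups overlapped, with differences of 0.12, 0.13 and 0.45. Cldn1, Ocln and Tjp1 overlapped in both genotypes. With 3 libraries against 3 an exact permutation test cannot go below 0.10, so these differences are given as values.

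**Figure D5:**
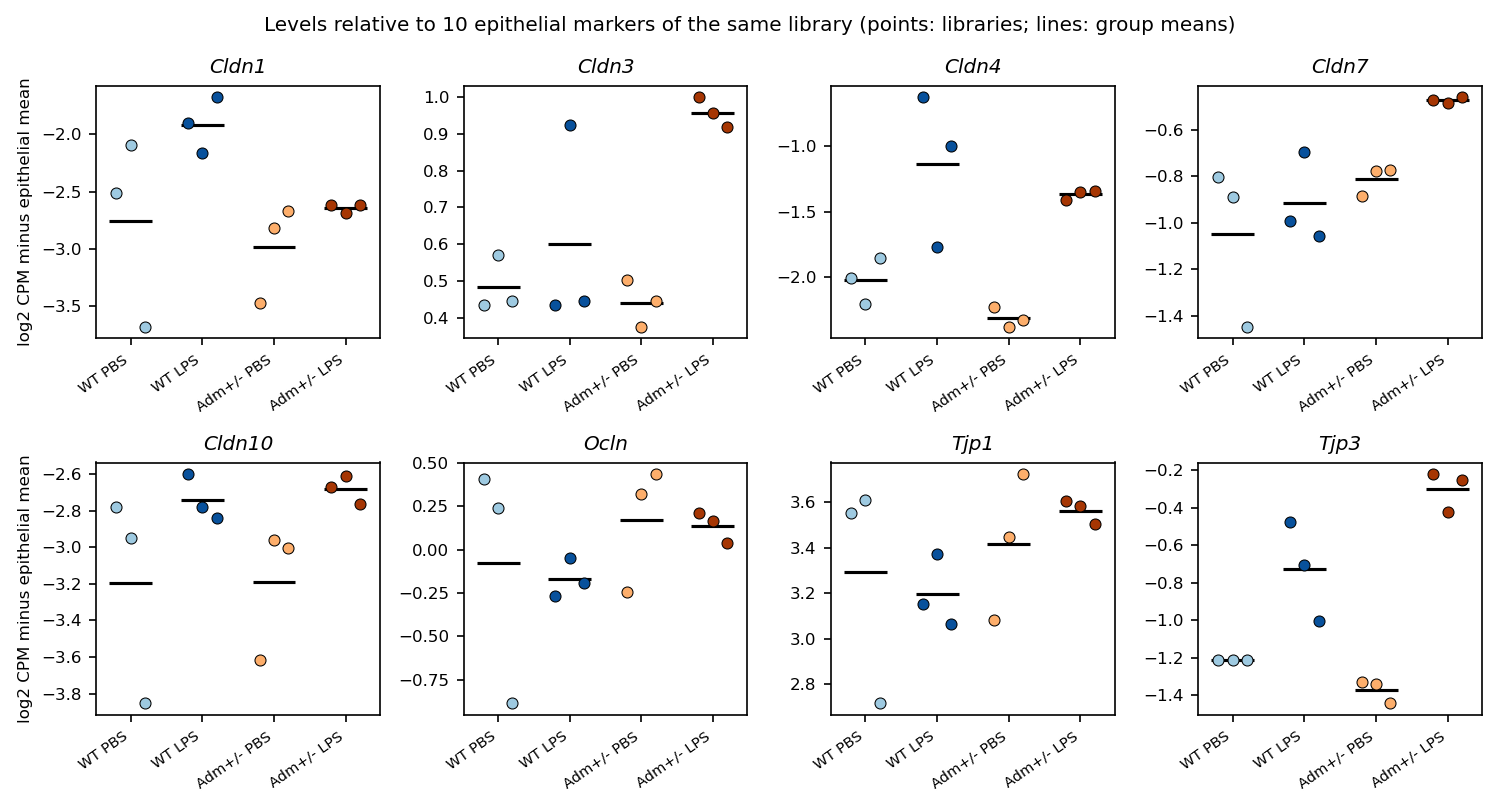
Log2 CPM of each gene minus the mean log2 CPM of 10 epithelial markers in the same library, by group, with a line at each group mean. Cldn4 and Tjp3 are higher in every LPS library than in every PBS library of the same genotype, and the 3 WT PBS libraries of Tjp3 nearly coincide.

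The third comparison asked whether the LPS response differed between genotypes. None of the 8 genes passed (0 of 8, against 0.145% of all tested genes), with adjusted p-values between 0.823 and 0.996 by edgeR's interaction test, and 0 of 8 had an unadjusted p under 0.05, against 7.85% of all tested genes. The largest estimates were a smaller response of Cldn1 in Adm+/- mice (log2 difference -0.61, 95% interval -1.45 to 0.23) and a larger response of Tjp3 (0.44, -0.17 to 1.05). The Cldn1 estimate was -0.36 without WT PBS library 5 and -0.08 without WT LPS libraries 9 and 11. For Cldn4 the interval ran from -1.18 to 0.82, so differences of either sign within these bounds were not excluded. The interval was narrowest for Cldn7 (0.08, -0.23 to 0.38). These contrasts use the same libraries as the responses within each genotype. DESeq2 and limma-voom also called 0 of the 8.

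The last comparisons set the genotypes against each other within a treatment. In PBS, 0 of 8 genes differed, as did 0% of all tested genes, although 344 genes (2.17%) had an unadjusted p under 0.05, which 0 of the 8 had. The estimates for the 8 genes ran from -0.42 for Cldn4 to 0.13 for Cldn7. In LPS, 0 of 8 differed, against 2.05% of all tested genes. Cldn1 came closest, at 8.72 ± 0.51 CPM in Adm+/- LPS against 17.5 ± 4.80 CPM in WT LPS (SD, n = 3), with a log2 difference of -1.01 ± 0.27 (adjusted p = 0.0816, edgeR). The groups did not overlap, nor did those of 24.6% of all tested genes, higher or lower, Cldn7 among them. DESeq2 did call Cldn1, and so did fits without WT LPS library 10 or WT PBS library 5. Without the squamous-marked WT LPS libraries 9 and 11 the difference was -0.48. Cldn4 was at 21.2 ± 0.70 CPM in Adm+/- LPS against 32.1 ± 15.2 CPM in WT LPS, and its log2 difference of -0.60 (95% interval -1.30 to 0.10) turned to 0.41 without libraries 9 and 11.

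Among the other claudins, 13 of 18 in the table passed the filter on low counts. In WT mice 2 of the 13 rose and 0 fell, against 10.5% and 7.09% of all tested genes. The Adm+/- counts were 1 and 1, against 12.8% and 12.2%. Cldn2, a pore-forming claudin, was low but rose in Adm+/- mice from 0.263, 0.405 and 0.398 CPM to 2.43, 1.89 and 2.81 CPM (log2 fold change 2.70 ± 0.46, adjusted p = 0.00134, edgeR). It rose in WT mice as well, by 1.41 ± 0.44 on the log2 scale, with overlapping groups. Cldn8 fell in Adm+/- mice from 1.74, 2.20 and 2.58 CPM to 0.524, 0.545 and 0.570 CPM (-1.99 ± 0.46, adjusted p = 0.00765, edgeR). Cldn23 rose in WT mice, where it was at 13.0 and 8.16 CPM in libraries 9 and 11 and at 3.29 CPM in library 10, against 1.85 to 2.43 CPM in PBS. Cldn18, the most abundant of this list by CPM, had log2 fold changes of -0.27 in WT and -0.18 in Adm+/- mice and did not pass in either. Per length the endothelial claudin gene Cldn5 stood higher, at 306 against 153 CPM per kb in WT PBS, and its log2 fold changes of -0.35 and 0.14 did not pass.

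Of 10 other membrane proteins of the tight junction, 1 rose in WT mice, near the 10.5% of all tested genes. Of the same 10, 4 rose in Adm+/- mice, against 12.8%, and 1 fell, near the 12.2% of all tested genes. Jam2, a junctional adhesion molecule, rose in both, from 39.5, 41.6 and 19.3 to 63.9, 56.7 and 47.7 CPM in WT mice and from 29.2, 36.5 and 37.2 to 85.8, 77.3 and 74.6 CPM in Adm+/- mice. Its log2 fold changes were 0.74 ± 0.24 (adjusted p = 0.0437) and 1.21 ± 0.24 (adjusted p = 0.00289, both edgeR). In Adm+/- mice Cxadr, the coxsackievirus and adenovirus receptor, rose by 0.82, Ildr2 by 0.53 and F11r, which encodes JAM-A, by 0.52 on the log2 scale, while Jam3 fell by 0.70. Jam2 and Jam3 are also used by endothelium. Of 10 endothelial markers, 3 fell in WT and 4 in Adm+/- mice, against 7.09% and 12.2% of all tested genes, and 0 rose.

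Of 18 scaffold and polarity proteins tested, 2 rose in WT mice and the other 16 did not pass, and 2 rose and 3 fell in Adm+/- mice. These counts lie near the shares of all tested genes that rose (10.5% and 12.8%) or, in Adm+/- mice, fell (12.2%). The polarity gene Pard6b rose in both (0.56 and 0.78), and so did Ybx3, which encodes the ZO-1-associated factor ZONAB (0.55 and 0.50). Magi3 (-0.61), Pard3 (-0.57) and Mpdz (-0.54) fell in Adm+/- mice. In WT mice the same 3 genes had log2 fold changes of -0.43, -0.47 and -0.48, within the 0.5 limit on size, with adjusted p of 0.0124, 0.0234 and 0.00503 (edgeR).

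Of 16 adherens junction and desmosome genes, 5 rose in WT mice, against 10.5% of all tested genes. The Adm+/- counts were 1 higher and 1 lower, against 12.8% and 12.2% of all tested genes. The Adm+/- median log2 fold change was 0.046, both with all libraries and without WT LPS libraries 9 and 11. The WT genes included desmosomal genes of stratified epithelium whose levels followed the squamous-marked libraries. Ppl, the gene of periplakin, was at 332, 103 and 213 CPM in WT LPS libraries 9, 10 and 11 against 46.8 to 71.6 CPM in WT PBS. Pkp1, the gene of plakophilin 1, was at 105, 0.915 and 52.2 CPM in the same libraries, against 0 to 0.124 CPM in WT PBS. Dsg2, the desmoglein of simple epithelia, rose in both genotypes, by 0.60 and 0.59 on the log2 scale, and Jup, the gene of plakoglobin, fell by 0.63 in Adm+/- mice.

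Of 15 transcription and splicing factors of epithelia, 5 rose in WT mice (10.5% of all tested genes did), and 4 rose and 3 fell in Adm+/- mice (12.8% and 12.2% of all tested genes). Ehf, an ETS factor of epithelia, went from 13.9, 11.1 and 10.8 to 92.3, 32.7 and 40.3 CPM in WT mice and from 8.15, 12.8 and 9.54 to 53.1, 60.0 and 56.0 CPM in Adm+/- mice. Its log2 fold changes were 2.21 ± 0.34 (adjusted p = 0.00132) and 2.46 ± 0.34 (adjusted p = 0.000362, both edgeR). The grainyhead factor Grhl1 rose by 1.46 and 1.16 and the zinc finger factor Klf5 by 0.79 and 0.64 in WT and Adm+/- mice. Elf3 rose by 1.38 in Adm+/- mice, and by 0.99 in WT mice with overlapping groups. Grhl3 fell in Adm+/- mice, to 0.561, 0.126 and 0.499 CPM from a PBS range of 1.79 to 2.90 CPM. In WT mice it rose by 2.17 ± 0.69 (adjusted p = 0.0441, edgeR) with overlapping groups, at 15.1 and 12.0 CPM in the squamous-marked libraries 9 and 11 and 1.33 CPM in library 10, against 1.16 to 3.15 CPM in PBS. The difference between these responses did not pass (adjusted p = 0.20, edgeR). Without WT PBS library 5 and Adm+/- PBS library 6, Grhl3 was not called in either genotype.

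Of 6 repressors of epithelial junction genes, 0 passed in WT mice (edgeR, where 17.6% of all tested genes did). In Adm+/- mice 1 of the 6 fell, near the 12.2% of all tested genes that did. This was Snai2, a Snail-family repressor, which fell by 1.14 ± 0.31 on the log2 scale (adjusted p = 0.0177, edgeR). Of 6 kinases that act on tight junctions, 1 rose and 1 fell in WT mice, and 2 rose and 1 fell in Adm+/- mice, and a count of 1 in 6 lies near the shares of 10.5% or 7.09% (WT) and 12.8% or 12.2% (Adm+/-) of all tested genes. Egfr, the epidermal growth factor receptor, rose in both (0.82 ± 0.17 and 1.18 ± 0.17), and Mylk, the myosin light chain kinase gene, which smooth muscle also uses, fell in both (-0.66 ± 0.14 and -0.69 ± 0.14). Rock2 rose by 0.69 in Adm+/- mice.

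These counts were repeated without the libraries that stood apart, in alternatives chosen after the data had been seen. Without WT LPS libraries 9 and 11, Ehf passed in WT mice and 0 genes of the other 6 lists did. That fit, with a single WT LPS library, called 4.77% of all tested genes in either direction, against 17.6% with all libraries. The median log2 fold change went from 0.59 to -0.02 for the 15 factors and from 0.32 to -0.09 for the 16 adherens junction and desmosome genes, and was 0.25 for the kinases, against 0.33 with all libraries. Leaving out WT PBS library 5 and Adm+/- PBS library 6 called 15.3% (WT) and 24.8% (Adm+/-) of all tested genes, against 17.6% and 25% with all libraries. The WT counts of that fit were 1 claudin, 0 membrane proteins, 2 scaffold genes, 4 adherens junction and desmosome genes and 6 factors higher, with 0 lower in each, and of the kinases Egfr was higher and Mylk lower. In Adm+/- mice the same fit had 2 membrane proteins higher and 1 lower, 2 scaffold genes higher and 2 lower, 4 factors higher and 1 lower, and 4 of the 6 repressors lower. The Adm+/- claudins and kinases had the same counts as before, and of the adherens junction and desmosome genes 0 were higher and 1 was lower.

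The genes whose levels were most like those of each member were found by Pearson's r of log2 CPM over the 12 libraries. Both genes of a pair were measured in the same libraries, which differ in treatment, genotype and depth, so these values are a description. Removing group means does not remove differences between the libraries of a group. Squamous-marked WT LPS libraries 9 and 11, WT PBS library 5 and Adm+/- PBS library 6 stayed in, and their part in these values was not tested. For Cldn4 they were Ezr (r = 0.97, and 0.91 after group means were removed), the gene of the membrane-cytoskeleton linker ezrin, Sfn (0.96 and 0.95), the gene of the epithelial protein 14-3-3 sigma, and Fermt1 (0.96 and 0.90), the gene of an epithelial kindlin. For Tjp3 they were Vsir (0.97 and 0.97), Por (0.97 and 0.85) and Arpc1b (0.97 and 0.86). For Cldn1 they were Mertk (0.94 and 0.86), Abca8a (0.94 and 0.84) and Fmo2 (0.94 and 0.92), and for Cldn3 they were Klhdc8a (0.98 and 0.92), Pcx (0.98 and 0.95) and Mnt (0.97 and 0.91). Cldn7 was closest to Polr1b (0.96 and 0.83), Trip11 (0.95 and 0.73) and Clic1 (0.95 and 0.60), and Cldn10 to Mmrn1 (0.98 and 0.94), Rap2b (0.98 and 0.92) and Usp53 (0.98 and 0.92). Ocln was closest to Rybp (0.98 and 0.98), Pex3 (0.97 and 0.98) and Slc16a4 (0.97 and 0.97), and Tjp1 to Ano10 (0.99 and 0.98), Ubap2l (0.97 and 0.96) and Rab11b (0.96 and 0.98). No member appeared among the nearest genes of another.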

How the data were processed

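Per the labels and the paper's methods, the authors used Trim Galore, HISAT2 (build mm10) and, against Gencode gene models, featureCounts. The library kit was directional with ribosomal RNA depletion, and the Gencode release and the strand setting of the counting are not given in the sources used here. The deposited table holds raw counts for 52550 genes in 12 libraries, each from 1 mouse of its group. None of 12 pairs of libraries within a group agreed within sampling noise.

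In R 4.3.3, the 15885 of 21950 protein-coding genes past filterByExpr were scaled by TMM and entered edgeR 4.0.16 (glmQLFit, glmQLFTest) in a single fit with 1 coefficient per group and 8 residual degrees of freedom, which was checked on simulated data. Alternatives used DESeq2 1.42.0, limma-voom (limma 3.58.1), RLE size factors, glmTreat, other gene filters and fewer libraries. Log2 CPM used a prior count of 2. Positions and exon lengths came from Gencode M21, in which 52403 genes (99.7%) were found, and upstream windows came from RefSeq (GRCm38.p6).

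The 8 genes, 7 lists of junction genes and regulators and 10 cell type marker lists were chosen with earlier results of these data known. Named genes are the members, Adm, the 3 most abundant markers of a list discussed, and the 3 genes nearest to each member. Per junction list and genotype, up to 4 genes past the threshold with the largest change and no overlap were also named. Cldn5, Cldn18, F11r, Rab25, Spint1, Hp, Gm26917 and genes given with overlapping groups were named outside this rule, after their values were seen. Cldn25 was not matched, and Pals1 and Mpp5 are names of 1 gene. One gene of the scaffold and polarity list is not reported here and was left out of its counts after they had been seen. Counting precision covers counting error only.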

Additional observations from a re-analysis of the deposited data

How the results depend on the processing

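No paired analysis was made, because the labels give no batch, litter or pairing. Of the 8 genes, 4 passed in WT mice under RLE size factors, DESeq2, limma-voom and no filter on low counts, 3 with all annotated genes, and 0 under glmTreat or in a fit of the 6 WT libraries. Leaving out 1 library gave 0 to 4 in WT mice (0 without WT LPS 9, 1 without WT PBS 4 or WT LPS 11) and 1 to 4 in Adm+/- mice (1 without Adm+/- PBS 8). In Adm+/- mice 4 passed under RLE, DESeq2, limma-voom, all annotated genes and the 6 libraries, 3 without a filter and 1 under glmTreat. Over these alternatives, leaving out libraries included, 4.77% to 20.9% of all tested genes passed in WT mice and 10.7% to 28.8% in Adm+/- mice. For Adm+/- against WT mice in LPS the count was 1 (Cldn1) with DESeq2 and 0 to 1 on leaving out 1 library. The shares above cover the LPS responses only, and in the fit of all 12 libraries 2.05% of all tested genes passed for this comparison. Reducing WT LPS to library 10 gave 0 in WT mice, and leaving out WT PBS 5 and Adm+/- PBS 6 gave 1 for the genotypes in LPS. Some log2 changes that had not passed turned sign. With all annotated genes, Tjp1 between genotypes in PBS was -0.0019. On leaving out 1 library, the WT response ranged from -0.15 to 0.23 (Ocln) and -0.039 to 0.17 (Tjp1), and the Adm+/- response of Ocln from -0.071 to 0.072. The difference between responses ranged from -0.50 to 0.17 (Cldn4), -0.22 to 0.084 (Cldn10) and -0.21 to 0.18 (Ocln). The genotype difference in PBS ranged from -0.27 to 0.021 (Cldn10), -0.097 to 0.28 (Ocln) and -0.11 to 0.094 (Tjp1). With WT LPS reduced to library 10, the WT response of Ocln was -0.055, the differences between responses were 0.83 (Cldn4), 0.22 (Cldn10) and 0.074 (Ocln), and the genotype differences in LPS were 0.41 (Cldn4) and 0.10 (Cldn10). Without WT PBS 5 and Adm+/- PBS 6, the WT responses were -0.15 (Ocln) and -0.039 (Tjp1), the Adm+/- response of Ocln was -0.076, its difference between responses 0.075, and the genotype differences in PBS were -0.0078 (Ocln) and -0.055 (Tjp1). The cause of these shifts was not tested. With 3 mice a group, the interval of each LPS response spans more than 0.4 log2 units, and calls near the threshold depend on single libraries.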

Other observations

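Marker lists of the lung's own epithelial cells were counted against all tested genes, of which 10.5% rose and 7.09% fell in WT mice and 12.8% rose and 12.2% fell in Adm+/- mice. The counts of 1 in a list that follow lie near these shares. Of 8 club and secretory cell markers, 2 rose in each genotype. Hp, the gene of the acute-phase protein haptoglobin, went from 151, 223 and 233 CPM to 1012, 865 and 428 CPM in WT mice and from 178, 141 and 119 CPM to 1429, 1117 and 1346 CPM in Adm+/- mice. Scgb1a1, the defining secretoglobin of club cells, was at 527 to 1507 CPM in WT PBS and 1574 to 1668 CPM in WT LPS. Its Adm+/- values went from 776, 1292 and 1236 to 1808, 2002 and 1718 CPM. The groups did not overlap in either genotype, and neither change passed (adjusted p = 0.205 and 0.0865, edgeR). Of 10 type II pneumocyte markers, 1 rose in WT mice, and 3 rose and 2 fell in Adm+/- mice, where Slc34a2, a phosphate transporter, rose by 0.68 on the log2 scale. Of 10 type I pneumocyte markers, 1 rose and 1 fell in WT mice and 2 rose in Adm+/- mice, and Ager, the most abundant, passed in neither. Of 8 ciliated cell markers, 0 passed in WT mice and 1 rose in Adm+/- mice.

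Against the same shares of all tested genes, the neutrophil list had 9 of 10 markers higher in WT mice and 10 of 10 in Adm+/- mice. The squamous epithelium list had 11 genes tested, with 9 higher in WT mice and 0 in Adm+/- mice. Without WT LPS libraries 9 and 11 the median log2 fold change of the list went from 8.86 to 2.29 in WT mice. In Adm+/- mice it was 4.09 in both fits, so the count of 0 does not show that these markers were unchanged. All 10 skeletal muscle markers rose in WT mice, while 1 rose in Adm+/- mice. The liver list had 7 genes tested, with 1 higher in WT mice, near the share of all tested genes, and 0 in Adm+/- mice. The part of these cells in the levels of the tight junction genes was not tested.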
